A study of Drosophila melanogaster with 9 samples.

Results

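Pairs of 10 kb bins that lay over 200 kb and up to 1 Mb apart in Hi-C data of Kc167 cells, a female Drosophila melanogaster line established from embryos, were examined on chromosome arms 2L, 2R and 3L. Hi-C ligates and sequences DNA ends that were close together in fixed nuclei, here after cutting with HindIII. Per the labels, the cells were grown at 25 °C, held at 37 °C for 20 min and fixed with formaldehyde. One deposited list, named here the heat-shock list, covers the 2 Hi-C libraries of these cells together. The cells, treatment and number of libraries behind the other are not stated in any label used here, and it is named the companion list. A pair was a member when its bin starts were over 200 kb and up to 1 Mb apart and neither bin started in the first or last 1 Mb of its arm. The rule gave 6341 of the 59303 heat-shock pairs and 4547 of the 33978 companion pairs, which together are 8987 different pairs of 82344.

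Drosophila chromosomes fold into domains within which contacts are frequent. Contacts between domains are less frequent, and silent or Polycomb-bound domains are known for meeting over larger distances than the length of a domain. Heat shock is known for halting transcription of most genes while the heat-shock genes are induced. Per its title, the study concerns how temperature remodels physical domains of the chromosomes. The lists do not say which bins share a domain, so distance and position alone describe the pairs below.

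Each list gives an arm, 2 bins and the authors' score, which is negative, never above -2, and lower for stronger pairs. Read counts are not part of the lists, so the depth behind a pair is unknown. An unlisted pair either did not reach the limit of the score or was not scored, and the lists do not tell these apart. There is 1 list of each kind, so no test between them was possible. Bracketed ranges are exact 95% intervals that cover counting error only and treat neighbouring pairs as independent, which they are not. A genome build was not given in the sources used here. Positions are those of the lists, counted from 1, and no gene was assigned to a bin because the only gene table used here is of Release 6, where genes lie past the last listed bin on all 5 arms.

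The first comparison was of numbers and distances. At this range the heat-shock list held 1.39 times as many pairs as the companion list (1.34 to 1.45), against 1.75 times (1.72 to 1.77) over all arms and distances. Within the range the excess lay at distances over 400 kb. For pairs up to 200 kb apart inside the same arms, below the range, the ratio was 1.26 (1.17 to 1.35). Between 200 and 300 kb the heat-shock list held 882 pairs and the companion list 945, which is 0.93 times as many (0.85 to 1.02). It was 1.03 (0.93 to 1.13) between 300 and 400 kb, 1.34 (1.21 to 1.49) between 400 and 500 kb, and 1.59 (1.41 to 1.79) between 500 and 600 kb. Between 900 kb and 1 Mb there were 703 heat-shock and 360 companion pairs, a ratio of 1.95 (1.72 to 2.22). The median distance of heat-shock pairs was 580 kb (570 to 590 kb), that of companion pairs 480 kb (470 to 490 kb).

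The number of pairs depended on where the longer list was cut. When the whole heat-shock list was shortened by score to the length of the companion list, its pairs at this range were fewer than the companion pairs, with a ratio of 0.77 (0.73 to 0.80). The median distance of the heat-shock pairs was then 600 kb (590 to 620 kb), still longer than in the companion list.

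**Figure D1:**
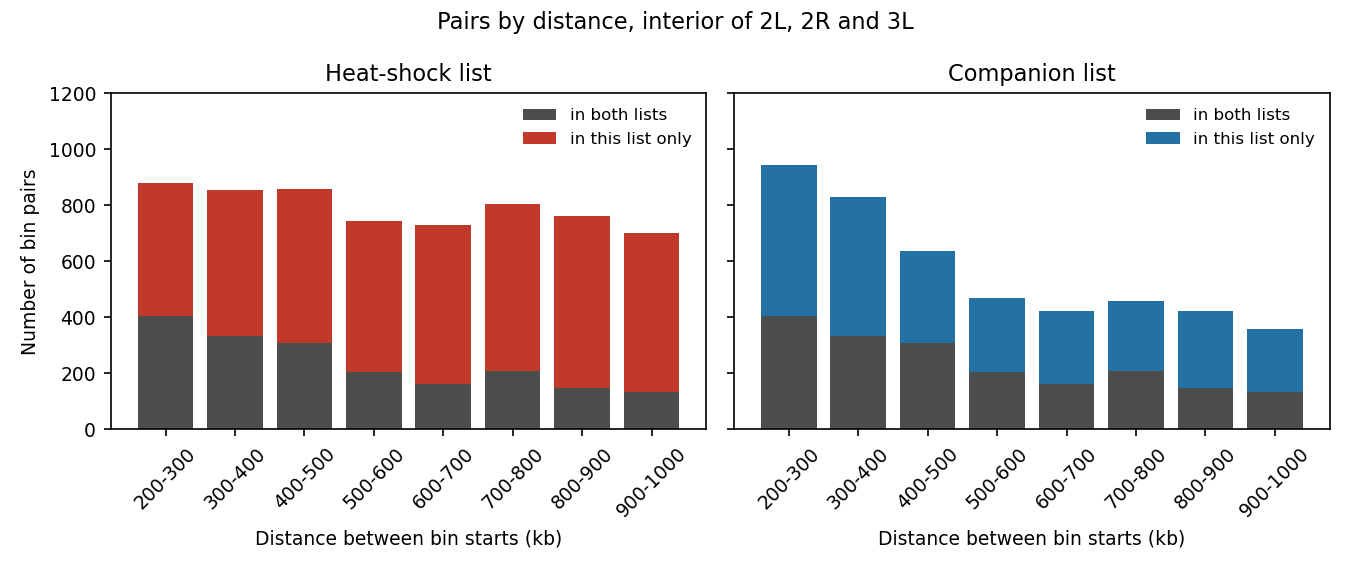
Number of pairs (y axis) in each 100 kb of distance between bin starts (x axis) in the heat-shock list (left) and the companion list (right), with pairs found in both lists in grey and pairs of that list alone in colour. Heat-shock-only pairs stay between 478 and 613 per 100 kb, while companion-only pairs run from 541 at the nearest to 227 at the farthest step.

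At the limits of the rule the numbers ran on without a step. At a distance of 200 kb, just outside, there were 87 heat-shock and 85 companion pairs, and at 210 kb, just inside, 97 and 86. At 1000 kb, just inside, there were 67 and 46, and at 1010 kb, just outside, 65 and 48. Leaving out the arm ends removed 3742 heat-shock and 3612 companion pairs on these 3 arms.

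Of the 3 arms, 3L had the highest ratio. It had 2329 heat-shock and 1500 companion pairs, a ratio of 1.55 (1.45 to 1.66). Arm 2L had 2249 and 1713, a ratio of 1.31 (1.23 to 1.40), and 2R had 1763 and 1334, a ratio of 1.32 (1.23 to 1.42). The pairs of 2R were the shortest, with a heat-shock median of 530 kb (510 to 550 kb) and a companion median of 420 kb (400 to 440 kb). For pairs of the same distance inside 3R and X the ratios were 1.39 (1.32 to 1.45) and 1.45 (1.36 to 1.55).

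The second comparison asked where the pairs cluster along the arms. Each pair was placed by its midpoint in a 1 Mb window. The 63 windows with a pair held between 9 and 314 heat-shock pairs, with a median of 88, and between 0 and 275 companion pairs, with a median of 55. The 5 densest windows held 19.7% of heat-shock pairs and 23.9% of companion pairs, and 3 windows were among the 5 densest of both lists. Across windows the numbers had a Spearman rho of 0.84, given as a description because windows share libraries and list length.

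The densest heat-shock window was 3L 22000001-23000000, with 314 heat-shock and 147 companion pairs. It was followed by 2L 1000001-2000000 with 251 and 175, 2L 11000001-12000000 with 245 and 204, 2L 17000001-18000000 with 237 and 273, and 3L 2000001-3000000 with 200 and 95. The densest companion window was 2R 15000001-16000000, with 193 heat-shock and 275 companion pairs. The fifth densest companion window was 2R 13000001-14000000, with 181 and 161.

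Of the 57 windows with at least 50 pairs over both lists, 14 had at least 2-fold more heat-shock pairs and 1 had at least 2-fold fewer. Over all 5 arms with their ends, 25% of such windows had at least 2-fold more and 0.862% at least 2-fold fewer, so the 14 windows are close to the background. The highest ratios were 3.89 (2.53 to 6.18) at 3L 21000001-22000000, with 105 against 27 pairs, 3.42 (1.76 to 7.14) at 2R 10000001-11000000, with 41 against 12, and 3.14 (2.03 to 5.00) at 2R 4000001-5000000, with 88 against 28. The lowest was 0.37 (0.22 to 0.62) at 2L 16000001-17000000, with 22 heat-shock and 59 companion pairs. The next were 0.70 (0.58 to 0.85) at 2R 15000001-16000000 and 0.78 (0.60 to 1.01) at 3L 13000001-14000000, where 111 heat-shock pairs stood against 142. In 10 windows the companion list held more pairs although it is the shorter list; the share of such windows over all 5 arms was 16.4%.

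**Figure D2:**
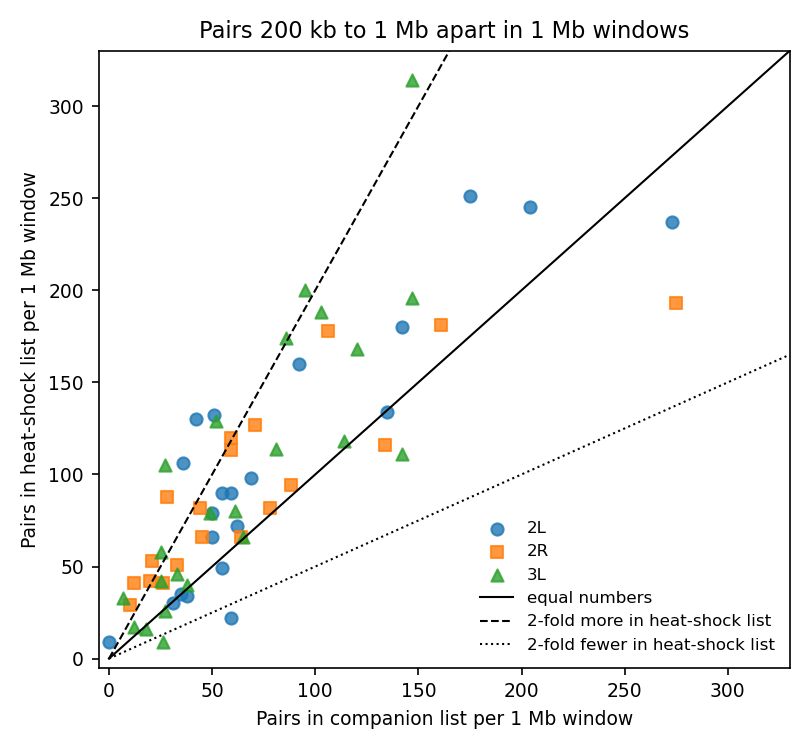
Number of heat-shock pairs (y axis) against companion pairs (x axis) in each of 63 windows of 1 Mb, with symbols for the 3 arms and lines at equal numbers and at 2-fold more or fewer. Most windows lie above the line of equal numbers, and the window with most companion pairs, 275 on 2R, lies below it with 193 heat-shock pairs.

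Some stretches had no pair that met the rule. The longest in the companion list was 2L 21400001-21990000, 590 kb at the inner edge of the excluded centromere end, of which 4 bins had a heat-shock pair in the range. The next were 2R 8770001-9040000 with 270 kb and 3L 18870001-19100000 with 230 kb. In the heat-shock list the longest was 2L 16430001-16700000 with 270 kb, inside the window of lowest ratio, of which 2 bins had a companion pair in the range. The next were 2R 6000001-6190000 and 3L 1100001-1290000, with 190 kb each. The 3L stretch begins at the first bin kept by the rule. At this stretch and at 2L 21400001-21990000, pairs with a bin in the excluded arm end were not counted. These stretches were not without listed partners: 25 of the 27 bins of the 2L 16430001-16700000 stretch had a heat-shock partner at some other distance. In the 2L 21400001-21990000 stretch 45 of 59 bins had a companion partner when all distances and the whole arm were counted.

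The third comparison looked at how pairs group in the contact map. Pairs were joined into a group when their bins were the same or adjacent at both ends. At full length a pair with such a neighbour was about as common in both lists. The shares were 58.6% (57.4 to 59.8%) of heat-shock and 60.1% (58.7 to 61.5%) of companion pairs. This likeness depended on list length. At equal length within the range the heat-shock share was 54.8% (53.4 to 56.3%), and at equal length of the whole lists 52.4% (50.7 to 54.1%). The companion share cannot move in these settings. With neighbours within 2 bins, at full length, the heat-shock share was the higher one, 77.9% against 74.9%. The shape of the groups differed. Groups of 10 or more pairs held 9.60% (8.89 to 10.4%) of heat-shock pairs in 27 groups and 20.1% (18.9 to 21.3%) of companion pairs in 41 groups. Of the 165 heat-shock groups of 5 or more pairs, 62, or 37.6% (30.2 to 45.4%), were 1 bin wide, that is, a line of adjacent partners of a single bin. Of the 127 companion groups of that size, 9 were 1 bin wide, or 7.09% (3.29 to 13.0%). Groups at least 3 bins wide on both sides, which join 2 segments as a block, made up 32.1% (25.1 to 39.8%) and 52.8% (43.7 to 61.7%).

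The share of line-shaped groups was 38.8% (29.1 to 49.2%) among the 4547 strongest heat-shock pairs at this range, a set as long as the companion one. Without bins in the top 1% by partners in either whole list it was 18.8% (11.2 to 28.8%) for heat-shock and 4.72% (1.55 to 10.7%) for companion groups. These shapes were chosen as a measure after the data were seen.

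A block well filled in both lists joined 2L 1190001-1520000 to the 30 kb segment 2L 2190001-2220000. Of its 96 bin pairs within the distance limits, 82 were heat-shock pairs, 86 companion pairs and 80 both. The block is cut off by the 1 Mb limit: of 60 further bin pairs over 1 Mb apart, between that segment and 2L bins from position 1000001 on, 47 were heat-shock pairs and 31 companion pairs, and all 31 were in both lists. The single bin 2L 1360001-1370000, in the middle of the first segment, had no partner at any distance in either list. It splits the block into heat-shock groups of 44 and 38 pairs, of which the first is the third largest.

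The strongest shared pairs all came from this block. Ranks were taken among the pairs that met the rule in each list. By the sum of ranks over both lists the first was 2L 1250001-1260000 with 2L 2210001-2220000, 960 kb apart. It ranked first among these pairs in each list, with heat-shock and companion scores of -35.2 and -48.7. The second was 2L 1210001-1220000 with 2L 2190001-2200000, with heat-shock and companion scores of -27.1 and -33.3. The third joined 2L 1260001-1270000 to 2L 2200001-2210000, with -19.3 and -40.7. The fourth joined the same bin to 2L 2210001-2220000, with -22.2 and -33.3. The fifth joined 2L 1370001-1380000 to 2L 2200001-2210000, with -19.8 and -25.3. Whether both lists score on 1 scale is unknown.

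The largest heat-shock group, of 62 pairs, joined 2R 12620001-12730000 to 2R 13360001-13480000, segments 745 kb apart between centres. Of the 132 bin pairs in this block 62 were heat-shock pairs, 53 companion pairs and 41 both, so both lists filled it to a similar extent. The second, of 47 pairs, lies inside the largest companion group.

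The 3 largest companion groups were fuller in the companion list. The largest, of 91 pairs, joined 2R 15650001-15830000 to 2R 16000001-16090000, 305 kb apart. Of its 156 bin pairs 103, or 66.0%, were companion pairs and 60, or 38.5%, were heat-shock pairs, with 52 in both. The second, of 69 pairs, joined 2L 15770001-15870000 to 2L 16110001-16240000, 355 kb apart, where 71 of 130 bin pairs were in the companion list, 15 in the heat-shock list and 14 in both. The third, of 66 pairs, joined 2R 17550001-17700000 to 2R 17880001-17990000, 310 kb apart, with 73 of 162 bin pairs in the companion list, 29 in the heat-shock list and 25 in both. In all 3 blocks most heat-shock pairs were pairs that the companion list also held. These groups were chosen for their size in the companion list, so the lower heat-shock numbers in them carry that choice.

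**Figure D3:**
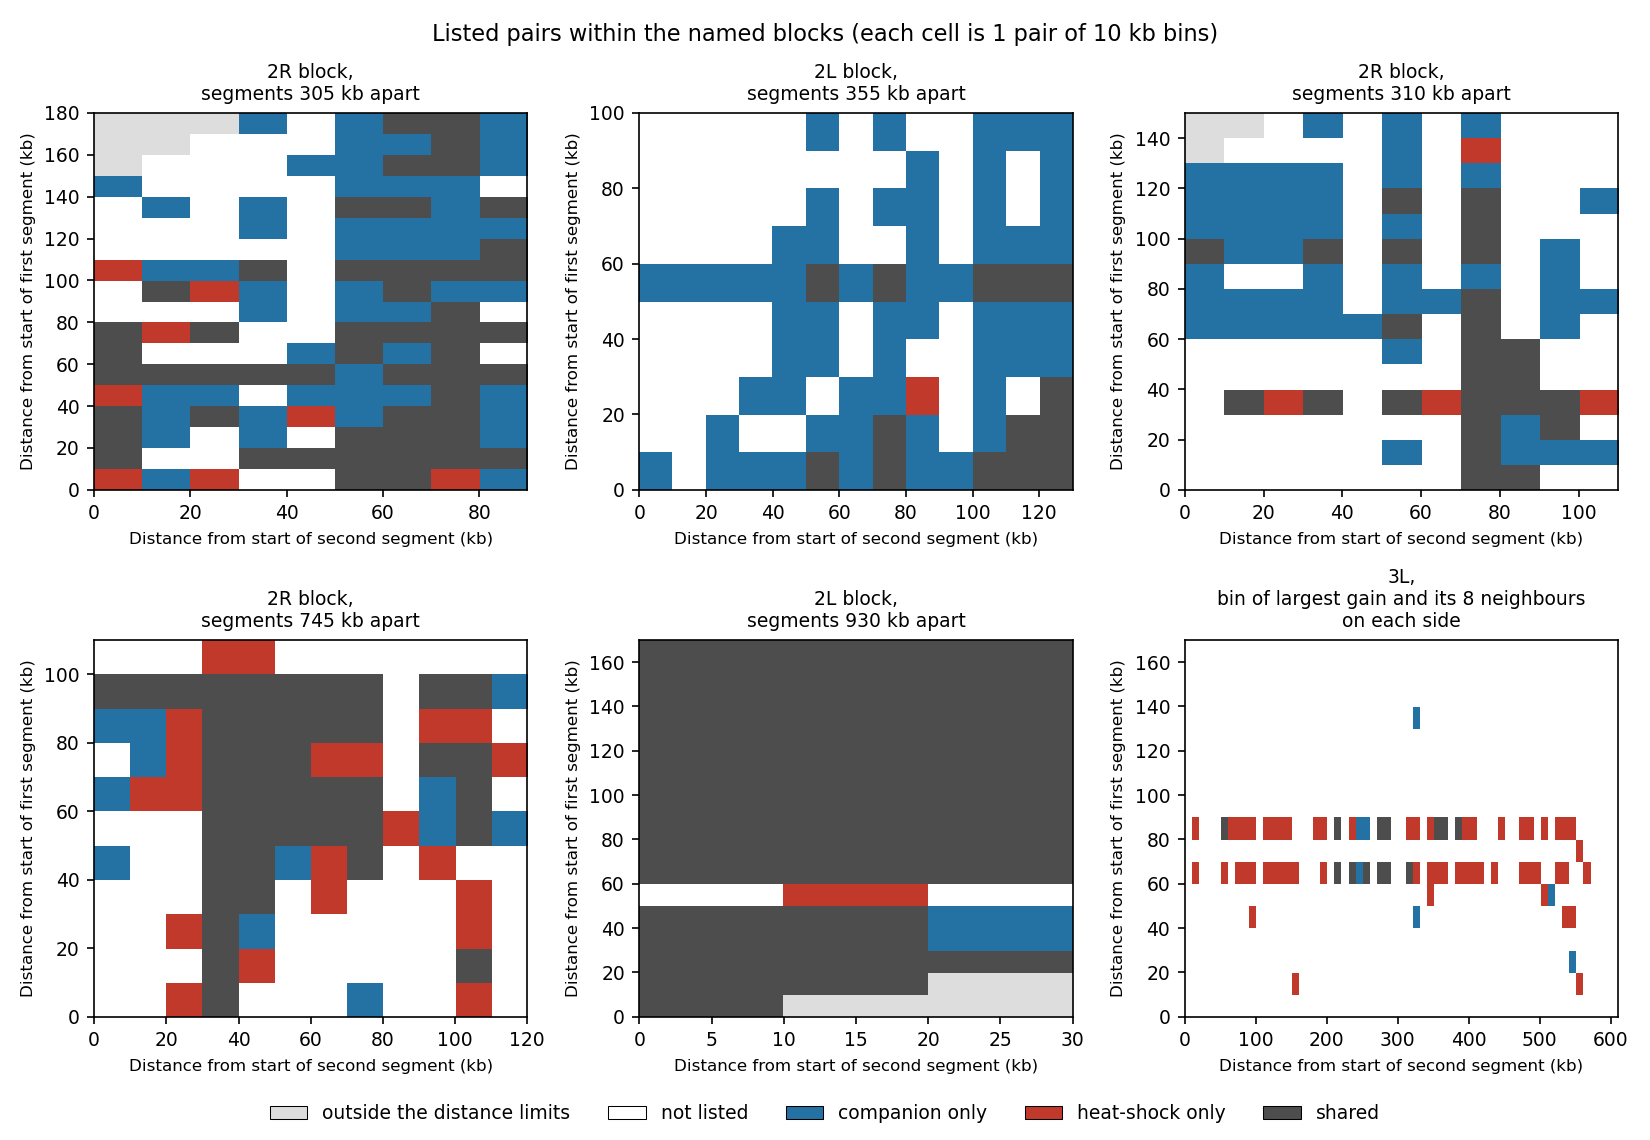
Maps of the 5 different blocks formed by the 3 largest groups of each list, and of the bin with the largest gain of partners with 8 bins on each side (last map). Axes give the distance in kb from the start of each segment, each cell is 1 pair of 10 kb bins, and colours show pairs of both lists, of the heat-shock list alone and of the companion list alone; pairs outside the distance limits are light grey. The 2L block 930 kb apart is nearly filled with shared pairs (43 of 48), the 2L block 355 kb apart holds 57 companion-only pairs and 1 heat-shock-only pair among its 130, and the last map shows 2 thin lines of mostly heat-shock-only pairs, from bins 20 kb apart.

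The fourth comparison separated shared pairs, with both bins the same, from pairs of a single list. The lists shared 1901 pairs at this range, which is 41.8% (40.4 to 43.3%) of the companion pairs and 30.0% (28.9 to 31.1%) of the heat-shock pairs. Over all arms and distances 32.2% of companion pairs and 18.4% of heat-shock pairs were shared. On the same 3 arms companion pairs were shared to 44.4% (41.7 to 47.0%) up to 200 kb and to 22.8% (21.8 to 23.8%) over 1 to 5 Mb. For pairs of the same distance the share was 44.0% (42.1 to 45.8%) inside 3R and 43.3% (40.9 to 45.8%) inside X, with intervals that overlap those of the 3 arms together. Arm by arm the companion share was 41.2% (38.9 to 43.6%) on 2L, 43.0% (40.3 to 45.7%) on 2R and 41.5% (39.0 to 44.0%) on 3L.

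Sharing differed more with distance among heat-shock than among companion pairs. Between 200 and 300 kb, 45.8% (42.5 to 49.2%) of heat-shock pairs were shared, and between 900 kb and 1 Mb 18.9% (16.1 to 22.0%). For companion pairs these shares were 42.8% (39.6 to 46.0%) and 36.9% (31.9 to 42.2%). Both shares count the same shared pairs, so the difference between the lists follows from their numbers of pairs at each distance and is not a separate result. The median distance was 470 kb (460 to 480 kb) for shared pairs, 490 kb (470 to 510 kb) for companion-only pairs and 630 kb (620 to 640 kb) for heat-shock-only pairs.

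Pairs with a neighbour were more often shared than pairs without one, and in the heat-shock list the share rose with group size. In the heat-shock list 16.0% (14.6 to 17.5%) of pairs without a neighbour were shared, 29.4% (27.6 to 31.3%) in groups of 2 to 4, 47.2% (43.8 to 50.6%) in groups of 5 to 9 and 68.5% (64.6 to 72.1%) in groups of 10 or more. In the companion list the shares were 30.5% (28.4 to 32.7%), 47.9% (45.1 to 50.7%), 47.7% (43.4 to 52.0%) and 52.3% (49.0 to 55.6%). There the intervals of all sizes from 2 on overlap.

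Strong scores went with sharing in both lists. The strongest 10% of the companion pairs was shared to 81.1% (77.2 to 84.6%) and the weakest 10% to 21.4% (17.7 to 25.4%). In the heat-shock list the strongest 10% was shared to 61.1% (57.2 to 64.9%) and the weakest to 19.7% (16.7 to 23.0%). Across the 1901 shared pairs the heat-shock and companion scores correlated with a Spearman rho of 0.39. Heat-shock pairs had median scores of -2.87 for shared and -2.45 for heat-shock-only pairs, and in the companion list it was -2.89 for shared and -2.36 for companion-only pairs.

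**Figure D4:**
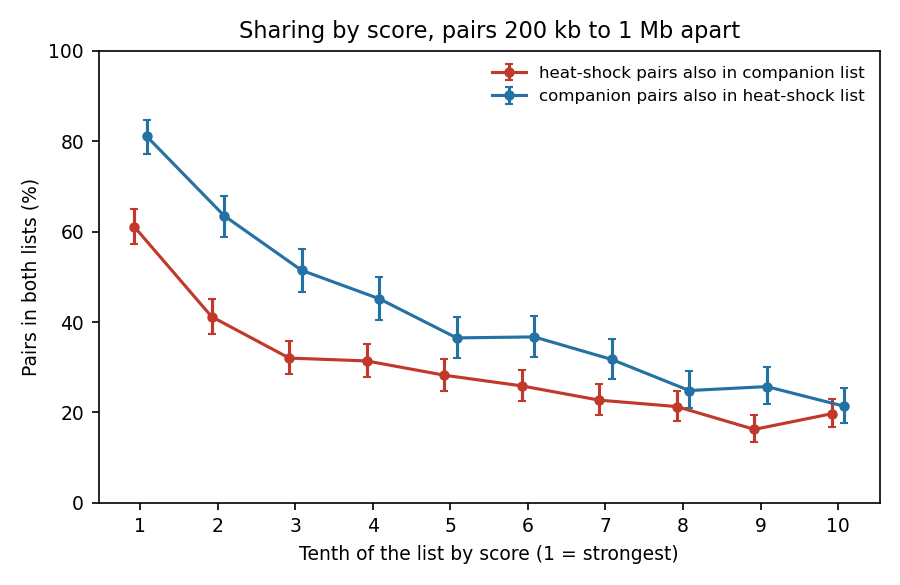
Percent of pairs found in both lists (y axis) in steps of 10% of a list by score, the strongest first (x axis), with exact 95% intervals that cover counting error only. Companion pairs run from 81.1% in the strongest to 21.4% in the weakest step, and heat-shock pairs from 61.1% to 19.7%.

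Many list-only pairs had a near match. Of the 2646 companion-only pairs, 1095, or 41.4% (39.5 to 43.3%), had a heat-shock pair within 1 bin at each end. Another 938 had no such match although both of their bins had other partners in the heat-shock list. In 562 cases 1 bin and in 51 cases neither bin had a heat-shock partner at this range. Of the 4440 heat-shock-only pairs, 1228, or 27.7% (26.3 to 29.0%), had a companion pair within 1 bin. Both bins had other companion partners in 1639 cases, 1 bin in 1429 and neither bin in 144.

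The strongest heat-shock-only pair was 3L 3150001-3160000 with 3L 4120001-4130000, 970 kb apart, with a score of -10.3. It was followed by 3L 11810001-11820000 with 3L 12110001-12120000 (-8.61), 2R 4700001-4710000 with 2R 5670001-5680000 (-8.32), 3L 8670001-8680000 with 3L 9490001-9500000 (-7.89) and 3L 1890001-1900000 with 3L 2500001-2510000 (-7.78). All of these except the 3L 8670001-8680000 pair had a companion pair within 1 bin at each end.

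Strong companion-only pairs reached lower scores. The strongest was 3L 23180001-23190000 with 3L 23530001-23540000, 350 kb apart, at -33.5, the third strongest companion pair of all at this range. That pair had a heat-shock pair within 1 bin at each end. Its second bin is the last one kept by the rule on 3L, so pairs reaching beyond it were not counted. The next was 2L 2800001-2810000 with 2L 3610001-3620000, 810 kb apart, at -31.2, which had no heat-shock pair within 1 bin. The remaining 3 of the 5 strongest were 3L 19460001-19470000 with 3L 19850001-19860000 (-16.2), 3L 9670001-9680000 with 3L 10550001-10560000 (-14.0) and 2R 1090001-1100000 with 2R 1420001-1430000 (-13.8). The 3L 9670001-9680000 and 2R 1090001-1100000 pairs had a heat-shock pair within 1 bin at each end. The 3L 19460001-19470000 pair had none, and neither of its bins had any heat-shock partner at this range.

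The fifth comparison followed single bins. A partner is a bin paired with it in a list, here always over 200 kb and up to 1 Mb away. Of the 6251 bins inside the 3 arms, 4040 had a partner in either list, 3460 in the heat-shock list, 2778 in the companion list and 2198 in both. The median was 2 partners in each list. More heat-shock than companion partners were found for 2207 bins, or 54.6%, and fewer for 1209, or 29.9%. Over all arms with their ends these shares were 56.2% and 29%, so the 3 arms are close to the background.

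Partners gathered on few bins in the heat-shock list. Bins with 20 or more partners numbered 90 there and 36 in the companion list, and 28 bins were in both sets. They touched 50.1% (48.9 to 51.3%) of heat-shock pairs and 20.8% (19.6 to 22.0%) of companion pairs. Among the 4547 strongest heat-shock pairs at this range the share was 48.4% (47.0 to 49.9%), and without the top 1% of bins of either whole list it was 25.3% (24.0 to 26.7%) against 13.0% (12.0 to 14.2%). The bins beside them had far fewer partners than they had, though few partners are usual for a bin at this range. Heat-shock bins with 20 or more partners had a median of 32.5 partners, and the mean of the adjacent bins had a median of 1. In the companion list the values were 24.5 and 2.5.

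The bin with most heat-shock partners was 2L 17830001-17840000, with 76 heat-shock and 30 companion partners, of which 24 were the same. A run of 31 adjacent bins was among its heat-shock partners, against runs of at most 4 in the companion list. It was followed by 3L 22670001-22680000 with 73 and 31, where all 31 companion partners were among the heat-shock partners and 67 of the 73 lay at lower positions. The third was 3L 4890001-4900000 with 72 and 16, followed by 3L 20530001-20540000 with 66 and 34 and 2L 11370001-11380000 with 65 and 35. These last 2 were also among the 5 richest companion bins. In all of these bins at least 80% of companion partners were kept and more were listed besides.

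The 3 richest companion bins were adjacent and formed the 30 kb segment of the 2L block. The bin 2L 2190001-2200000 had 43 heat-shock and 38 companion partners with 35 in common, 2L 2200001-2210000 had 36 and 36 with 31 in common, and 2L 2210001-2220000 had 32 and 38 with 27 in common. All 43 heat-shock partners of the first lay at lower positions, at a median distance of 770 kb.

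How far bins kept their partners was measured as the share of the union, that is, partners in both lists as a percent of partners in either. This share cannot exceed the smaller partner number of a bin divided by the larger. For example, 3L 22670001-22680000 kept all 31 companion partners among 73 heat-shock partners, and its share was 42.5%. Of the 2198 bins paired in both lists, 721, or 32.8% (30.8 to 34.8%), had no partner in common, and 155 had the same partners, at most 4 of them. Among the 106 bins with 10 or more partners in each list none lacked a common partner. Their median share of the union was 31.2% (28.6 to 38.9%), and it ran from 9.09% to 76.1%. Partners in both lists were a median of 64.7% (58.3 to 70.0%) of a bin's companion partners and 44.4% (38.5 to 48.6%) of its heat-shock partners.

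The 5 bins that kept most lay in blocks. They were the 2L bins at 2190001 and 2200001, with 76.1% and 75.6%, 2R 13390001-13400000 with 73.3% (28 heat-shock, 24 companion, 22 in common), 3L 17060001-17070000 with 71.4% (19, 17 and 15) and 2R 15660001-15670000 with 70.6% (14, 15 and 12). Each had runs of at least 6 adjacent partners in both lists. Of the 106 bins, 31 had adjacent bins with on average at least 25% as many partners in both lists; their median share of the union was 45.5% (38.1 to 60.0%). The 59 bins whose neighbours fell below that in both lists had a median of 28.6% (25.8 to 31.2%). This split was chosen after the data were seen, and the ranges of the 2 sets overlap, 10.0% to 76.1% against 9.09% to 68.8%. The sets were not matched for how unequal the partner numbers of their bins were, which limits the share of the union. The lower median therefore cannot be read as fewer companion partners kept.

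The 5 bins that kept least had similar numbers of partners in both lists but different ones. At 2L 4330001-4340000, 14 heat-shock and 10 companion partners had 2 in common, all at lower positions. The bin 2L 18430001-18440000 had 12 and 10 with 2 in common, with median partner distances of 835 kb (heat-shock) and 255 kb (companion). At 3L 9970001-9980000 there were 10 and 11 with 2 in common, at 2L 11930001-11940000 10 and 10 with 2, and at 3L 22700001-22710000 11 and 17 with 3. In each of these 5 bins the median partner distance was longer in the heat-shock list. That was also the more frequent direction among the 350 bins with 5 or more partners in each list: the heat-shock partners were farther in 228 and nearer in 96, with a median shift of 25 kb (15 to 35 kb).

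**Figure D5:**
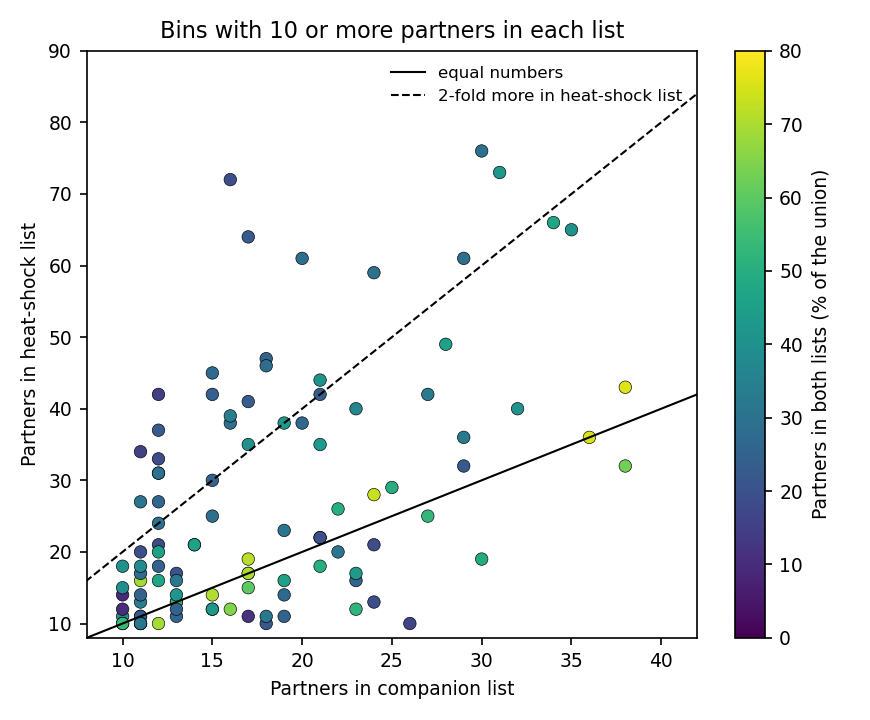
Heat-shock partners (y axis) against companion partners (x axis) of the 106 bins with 10 or more partners in each list, coloured by partners in both lists as a percent of the union. The highest shares (76.1% at most) lie near the line of equal numbers, and bins far above that line have lower shares than these. That pattern is set by the measure, because unequal partner numbers limit the share of the union even where all companion partners are kept.

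Of the 295 bins with 10 or more partners in either list, 119, or 40.3% (34.7 to 46.2%), had at least 2-fold more in the heat-shock list and 37, or 12.5% (8.99 to 16.9%), at least 2-fold fewer. Over all arms with their ends these shares were 31.9% and 13.7%. The balance depended on list length: with the 4547 strongest heat-shock pairs at this range 69 bins had more and 70 fewer, and with whole lists of equal length 45 had more and 86 fewer. The bins with more were mostly single, 103 of 119, and so were those with fewer, 27 of 37, when called bins up to 1 bin apart were joined.

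The largest gain of partners was on 3L. At 3L 4890001-4900000 there were 72 heat-shock and 16 companion partners, a difference of 56, and at 3L 4870001-4880000, 20 kb away, 64 and 17. In the heat-shock list 51 partners were common to both of these bins, against 7 in the companion list. The adjacent bins of 3L 4890001-4900000 had on average 0.5 partners. The next gains were at 2L 17830001-17840000, by 46, 2L 6980001-6990000, from 5 companion to 49 heat-shock partners with 2 in common, and 3L 22670001-22680000, by 42.

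Of the 5 largest losses, 4 lay in the segments of the 5 largest companion groups. Losses and groups were both ranked on the same companion pairs, so this overlap carries that choice and is a description of position only. The largest was at 2R 16110001-16120000, with 25 companion and 5 heat-shock partners. It lies in a companion group of 52 pairs between 2R 15650001-15830000 and 2R 16100001-16140000. The bins on either side had 27 and 30 companion partners and 25 and 19 heat-shock partners. It was followed by 2L 17930001-17940000 with 26 and 10. The next 3 were 2L 16960001-16970000 with 16 and 3, 2L 16940001-16950000 with 14 and 2, and 2L 17360001-17370000 with 17 and 5. These last 3 lie in the segments of the fifth largest companion group, which joined 2L 16860001-17020000 to 2L 17320001-17390000, with 51 of 112 bin pairs in the companion list, 14 in the heat-shock list and 11 in both.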

How the data were processed

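The data were 2 lists of bin pairs from Hi-C, each line naming an arm, 2 bins of 10 kb by position, and a score. The score is the authors' own, as deposited; for its base, test and background model nothing was stated. The submitters' processing notes name Bowtie 0.12.7. ChIP and input libraries (7) are not analysed here. Pairs were selected by arm, distance and position, with arm limits taken over both lists. The members and measures were chosen with earlier results of these data known. Named windows, groups, pairs and bins followed fixed ranks by number, size, score, share kept, gain or loss. Intervals on shares and on ratios of numbers are exact (Clopper-Pearson, 95%), and those on medians use order statistics (Python 3.11.15, scipy 1.17.1, pandas 2.3.3). Functions were tested on simulated lists with planted pairs and blocks. The lists are neither sample replicates nor pooled values with a known depth, so no test and no leaving out of a library was possible. Alternatives were stricter lists, equal lengths, other overlaps, other limits, and leaving out rich bins or an arm.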

Additional observations from a re-analysis of the deposited data

How the results depend on the processing

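Among 111 alternative values, 48 fell inside the reported interval (counts, within 1.5 times), 62 fell outside and 1 crossed to the other side of 1. Values computed from the companion list alone cannot move at equal length. Unless the construction shows it, the cause was not tested. No paired analysis was possible because each list is a single table with no replicates. Measures of group shape, rich bins and 2-fold counts were chosen after the data were seen. Without read counts, an unlisted pair cannot be taken as a missing contact.

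The ratio of pairs was 0.77 at equal length of the whole lists, 1 by construction at equal length within the range, 1.15 without the top 1% of bins, 1.24 with arm ends, 1.32 without 3L and 1.47 at 300 to 900 kb. Of the companion pairs the shared part was 29.0% and 34.3% at those equal lengths, 34.9% without top bins, 45.2% with arm ends, 65.9% within 1 bin and 77.2% within 2 bins. That of the heat-shock list was 28.6% in the strongest 50%, 37.7% and 34.3% at equal lengths, 36.6% with arm ends, 31.9% without 3L, 28.7% at 300 to 900 kb, 49.3% within 1 bin and 61.9% within 2 bins.

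The heat-shock median distance was 610 kb in the strongest 50%, 600 kb at both equal lengths, 560 kb without top bins, 560 kb without 2L and 600 kb without 2R. The companion median was 450 kb without top bins, 530 kb with arm ends, 460 kb without 2L, 500 kb without 2R and 540 kb at 300 to 900 kb. It stayed below the heat-shock median in every alternative.

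Heat-shock pairs with a neighbour were 51.2% in the strongest 50%, 52.4% and 54.8% at equal lengths, 53.2% without top bins, 67.0% with arm ends and 77.9% within 2 bins. Companion pairs with a neighbour were 56.8% in the strongest 50%, 71.3% with arm ends, 58.5% without 2R, 63.0% without 3L, 56.7% at 300 to 900 kb and 74.9% within 2 bins. At both equal lengths the companion share stayed 60.1%, above the heat-shock shares. Within 2 bins the heat-shock share was the higher one. It was also slightly higher without 2L, without 2R and at 300 to 900 kb, with overlapping intervals. The median share of the union kept by bins with 5 or more partners in each list was 32.7%, and matching within 1 bin, as a share of all listed partners, gave 65.0%.

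Line-shaped heat-shock groups were 18.8% without top bins. Heat-shock pairs in groups of 10 or more were 7.58% in the strongest 50%, 7.62% and 8.51% at equal lengths and 8.69% without top bins; companion pairs were 17.1% in the strongest 50%. Heat-shock pairs touching bins of 20 or more partners were 40.8% in the strongest 50%, 46.1% and 48.4% at equal lengths and 25.3% without top bins, and companion pairs 11.6% in the strongest 50% and 13.0% without top bins. Bins with at least 2-fold more heat-shock partners numbered 56 in the strongest 50%, 45 and 69 at equal lengths and 60 without top bins. Those with at least 2-fold fewer numbered 16, 86 and 70 in the first 3 of these settings.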

Other observations

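Bins rich in partners at this range also had distant partners, in larger numbers in the heat-shock list. The 90 heat-shock bins with 20 or more partners 200 kb to 1 Mb away had a median of 52.5 partners over 1 Mb away, against 4 for the other bins paired at this range. In the companion list the 36 such bins had a median of 8 and the others 2. The heat-shock list was also the longer one at such distances, with 14107 pairs 1 to 5 Mb apart inside these arms against 6957. These medians were not computed at equal list length. Across bins, which share libraries, Spearman's rho between partners at this range and over 1 Mb away was 0.32 for heat-shock and 0.19 for companion partners. The 3L 20530001-20540000 bin had 150 heat-shock and 25 companion partners over 1 Mb away, and 3L 4890001-4900000 had 89 and 7.

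Of 32994 cases in which 2 heat-shock partners of a bin lay 200 kb to 1 Mb apart, 4.33% were themselves a listed pair, and of 9508 such cases in the companion list 6.25%. Of the 485560 possible pairs of bins inside the 3 arms at these distances, 1.31% were in the heat-shock and 0.94% in the companion list; these include bins with no partner at all, which cannot enter the first count. In the companion list 28 of the 36 bins with 20 or more partners had at least 80% of them on one side, and in the heat-shock list 32 of the 90. These measures were chosen after the data were seen, and no explanation was tested.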
